A study of Homo sapiens with 15 samples.

Results

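The genes described are the plasminogen activators, 2 serpins that inhibit them, tissue factor and the inhibitors that restrain it, measured in MDA-MB-468 cells, a triple-negative breast cancer line with amplified EGFR. They were chosen by symbol, with earlier results of these data known, and mapped to the Ensembl gene IDs of the deposited table of counts: 9 genes of the 61552 listed. RNA was sequenced in 15 libraries, 3 in each of 5 groups. In the drug experiment, parental cells were starved of serum for 12 h, stimulated with EGF at 10 ng/mL, and left for 12 h with EGF alone (EGF), with EGF and 10 µM cSNX, a peptide the study uses to keep EGFR out of the nucleus (cSNX), or with EGF and 15 µM erlotinib, an EGFR tyrosine kinase inhibitor (ERL). In the line experiment, endogenous EGFR was knocked down with a lentiviral shRNA induced by IPTG, and GFP-tagged EGFR was put back, either wildtype (shEGFR-WT) or with its nuclear localization signal mutated (shEGFR-NLS). The study states that the lines were treated with EGF. The dose and the times of starvation and treatment of the lines are not given in the sources used here. Each line group is 1 derived line, so an effect of the mutation and any other difference between the lines cannot be told apart. No sequenced group received a control peptide, so an effect particular to cSNX and one of adding any peptide cannot be told apart either.

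Plasminogen activators are serine proteases that cut plasminogen into plasmin, the protease that dissolves fibrin and helps degrade extracellular matrix. Urokinase does so at the cell surface, bound to its receptor, whereas tissue-type activator works mainly on fibrin, and both are trapped by serpins, inhibitors that are consumed in a covalent complex with their target. Tissue factor is the membrane receptor that starts blood coagulation by binding factor VII. It is held in check by tissue factor pathway inhibitor, while thrombomodulin on endothelium turns thrombin towards activation of protein C. Many carcinoma cells make urokinase, its receptor and tissue factor.

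Library totals ranged from 22915676 to 35900649 counts. Levels are given as CPM, each library's counts scaled to a common total by TMM over all 15 libraries, and a count of 3 in a library corresponded to between 0.0836 and 0.135 CPM. EGFR, the gene targeted by the shRNA, averaged 4750 CPM in EGF and 1346 and 1722 CPM in shEGFR-WT and shEGFR-NLS, and it was higher in shEGFR-NLS than in shEGFR-WT by 0.37 on the log2 scale (edgeR, adjusted p = 0.00367). Reads of the introduced EGFR count with those of the endogenous gene, so this checks only their sum. All 6 epithelial markers were detected in every group. Among the breast tumour receptors PGR was at 0 in every library, but ERBB2 and ESR1 were detected. Group means of ERBB2 ran from 29.2 CPM in shEGFR-WT to 102 CPM in ERL, and those of ESR1 from 4.21 CPM in cSNX to 7.16 CPM in shEGFR-NLS. The summed epithelial markers ran from 8127 to 9658 CPM in ERL, 13972 to 18241 CPM in EGF, 15707 to 20089 CPM in cSNX, 18174 to 20755 CPM in shEGFR-WT and 10966 to 13404 CPM in shEGFR-NLS. Most of each sum was keratins, and KRT8 averaged 6053 CPM in EGF and 2582 CPM in ERL. CDH1 moved against the sums of the drug groups, averaging 94.1 CPM in EGF, 85.1 CPM in cSNX and 128 CPM in ERL. EPCAM averaged 389, 439 and 352 CPM in the same groups. The 5 endothelial markers summed to between 9.21 and 17 CPM in any library, the 5 fibroblast markers to between 8.38 and 21.4 CPM with DCN at 0 throughout, and the 5 leukocyte markers to between 10.5 and 44.8 CPM, most of it CD14. The part of these shifts in the results was not tested, and in bulk RNA fewer cells expressing a gene and less RNA per cell cannot be told apart.

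Most of these genes were lower with erlotinib and PLAU was higher, whereas 5 of them were higher with cSNX and none was called lower. In ERL vs. EGF, 7 of the 8 members that passed the filter on low counts passed edgeR's test at a Benjamini-Hochberg adjusted p under 0.05 (here, were called), against 44.0% of all genes tested. PLAU, urokinase, was higher, and PLAUR, PLAT, SERPINE2, SERPINB2, F3 and TFPI2 were lower, so 6 of 8 were called lower against 21.2% of all genes. In cSNX vs. EGF, 5 of 8 were called against 6.07% of all genes, and all 5 (PLAUR, PLAT, SERPINE2, SERPINB2 and F3) were called higher, against 3.38% of all genes. In shEGFR-NLS vs. shEGFR-WT, 6 of 8 were called against 41.4% of all genes: SERPINE2 was higher, and PLAU, PLAT, SERPINB2, F3 and TFPI were lower, which puts 5 of 8 in the lower set against 21.0% of all genes. The median log2 fold change of the 8 was -1.58 with erlotinib, 0.70 with cSNX and -0.65 with the mutation, beside 0.0082, 0.0020 and 0.0062 over all genes tested. The members were chosen with earlier results of these data known, so their counts beside the shares of all genes, here and below, are no test of the set. The 2 drug comparisons share their EGF libraries. THBD, thrombomodulin, had 0 counts in all 15 libraries, which allows a level of up to between 0.0836 and 0.135 CPM, depending on the library, and was not tested.

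**Figure D1:**
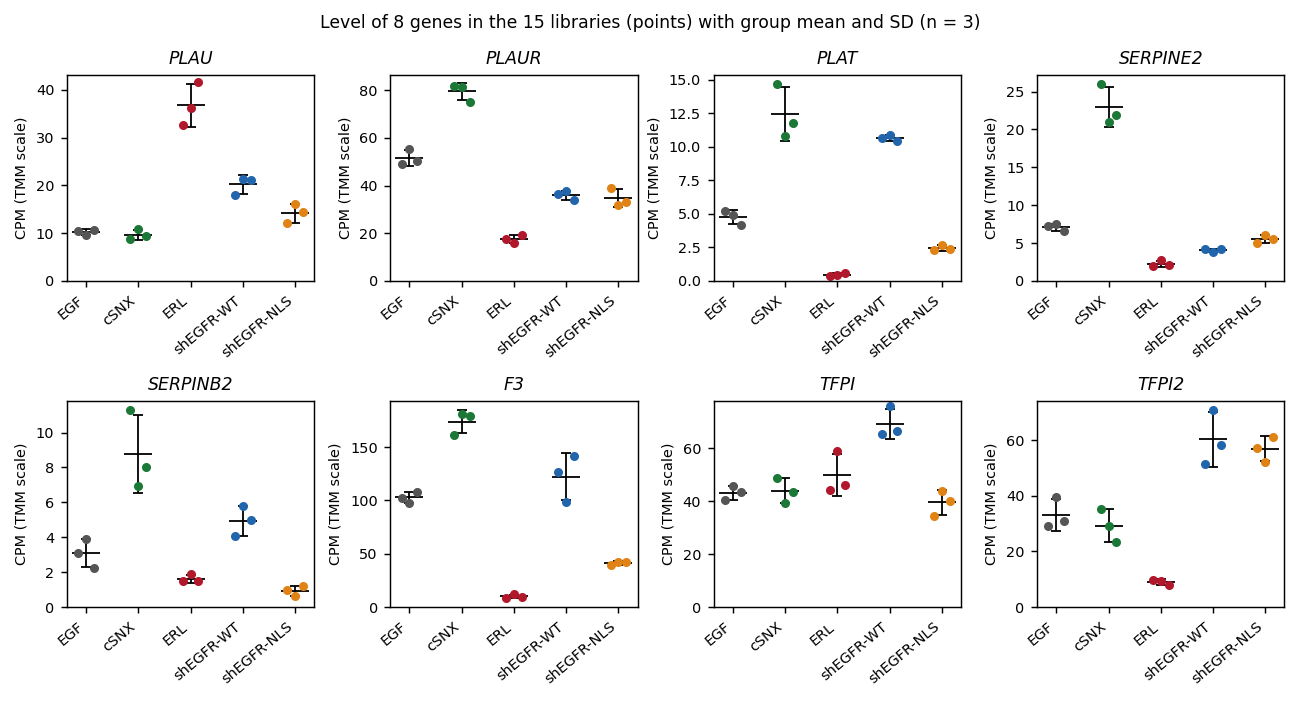
Levels of the 8 detected members in every library, in CPM on a linear axis from 0, 1 panel per gene, with the 5 groups along the horizontal axis. Each point is a library, and the bars give the mean and SD of 3. F3 and PLAT are lowest in ERL, PLAU is highest there, and SERPINE2 stands out in cSNX.

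PLAU (ENSG00000122861; GRCh38 chr10:73909177-73917496, plus strand) encodes urokinase. Its level was 10.4, 9.54 and 10.7 CPM in the EGF libraries and 8.84, 10.9 and 9.36 CPM in cSNX. With erlotinib it was 32.6, 36.3 and 41.6 CPM, above every other library of the study. In the lines it was 18, 21.4 and 21.2 CPM in shEGFR-WT and 12, 16.1 and 14.4 CPM in shEGFR-NLS. EGF and cSNX overlapped, whereas ERL did not overlap EGF, nor shEGFR-NLS shEGFR-WT. PLAU was 3.66-fold higher in ERL than in EGF (log2 fold change 1.87, standard error 0.12, edgeR adjusted p = 9.18e-09) and 1.42-fold lower in shEGFR-NLS than in shEGFR-WT (log2 fold change -0.50, standard error 0.11, edgeR adjusted p = 0.00182). With cSNX the difference did not pass the test (log2 fold change -0.067, standard error 0.13, edgeR adjusted p = 0.837). The counting did not use strand, and 915 exon bases of PLAU are shared with C10orf55, a long noncoding RNA on the opposite strand, which had 8 to 69 counts in a library against at least 196 for PLAU. C10orf55 was also higher in ERL than in EGF (log2 fold change 1.15, standard error 0.37, edgeR adjusted p = 0.0203), and reads of the shared bases cannot be told apart.

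PLAUR (ENSG00000011422; chr19:43646095-43670547, minus strand) encodes the urokinase receptor, which holds urokinase at the cell surface. It was at 49, 55.5 and 50.5 CPM in EGF, 81.8, 81.4 and 75.2 CPM in cSNX and 17.6, 15.7 and 19.4 CPM in ERL. The 3 drug groups were fully separate, with cSNX highest and ERL lowest. PLAUR fell 2.88-fold with erlotinib (log2 fold change -1.53, standard error 0.10, edgeR adjusted p = 6.97e-09) and rose 1.55-fold with cSNX (log2 fold change 0.63, standard error 0.092, edgeR adjusted p = 0.000434), the opposite of PLAU in the first case. The lines gave 36.3, 37.7 and 34 CPM for shEGFR-WT and 39.1, 32 and 33 CPM for shEGFR-NLS, which overlapped (log2 fold change -0.041, standard error 0.088, edgeR adjusted p = 0.743).

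PLAT (ENSG00000104368; chr8:42174718-42207709, minus strand) encodes tissue-type plasminogen activator. It was lowest with erlotinib: 5.2, 4.91 and 4.2 CPM in EGF against 0.382, 0.449 and 0.597 CPM in ERL, the latter from 11 to 17 counts a library. With cSNX it reached 14.7, 10.8 and 11.8 CPM. It was thus 9.83-fold lower with erlotinib (log2 fold change -3.30, standard error 0.23, edgeR adjusted p = 1.75e-08) and 2.63-fold higher with cSNX (log2 fold change 1.39, standard error 0.16, edgeR adjusted p = 7.42e-05). The level in shEGFR-WT, 10.7, 10.8 and 10.4 CPM, overlapped that of cSNX, and in shEGFR-NLS it was 2.33, 2.67 and 2.35 CPM. Every shEGFR-NLS library lay below every shEGFR-WT library, and the difference was 4.31-fold (log2 fold change -2.11, standard error 0.13, edgeR adjusted p = 2.14e-09). Both activators were therefore lower in shEGFR-NLS than in shEGFR-WT, but with erlotinib they went in opposite directions.

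SERPINE2 (ENSG00000135919; chr2:223975045-224039318, minus strand) encodes protease nexin-1, which inhibits thrombin, urokinase and tissue-type activator. It was at 7.29, 7.46 and 6.57 CPM in EGF and 2.03, 2.73 and 2.07 CPM in ERL. In cSNX it was at 26, 21 and 21.8 CPM, above all other libraries. The rise with cSNX was 3.26-fold (log2 fold change 1.70, standard error 0.13, edgeR adjusted p = 2.44e-06), the largest of any member in that comparison, and the fall with erlotinib 3.09-fold (log2 fold change -1.63, standard error 0.16, edgeR adjusted p = 6.61e-07). SERPINE2 was the member called higher in the mutant line: 4.22, 3.84 and 4.15 CPM in shEGFR-WT against 5.0, 6.04 and 5.51 CPM in shEGFR-NLS, without overlap (log2 fold change 0.45, standard error 0.13, edgeR adjusted p = 0.0128). That call was lost when shEGFR-NLS replicate 2 was left out (log2 fold change 0.38, adjusted p = 0.0620).

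SERPINB2 (ENSG00000197632; chr18:63871692-63903888, plus strand) encodes plasminogen activator inhibitor 2, a serpin of urokinase that stays largely inside the cell. It was at 3.11, 3.9 and 2.26 CPM in EGF and 1.5, 1.88 and 1.47 CPM in ERL. In cSNX it was at 11.3, 6.95 and 8.05 CPM, and no cSNX library overlapped another group. SERPINB2 rose 2.86-fold with cSNX (log2 fold change 1.52, standard error 0.21, edgeR adjusted p = 0.000322) and fell 1.89-fold with erlotinib (log2 fold change -0.92, standard error 0.24, edgeR adjusted p = 0.00613). The lines differed by more than either drug group did from EGF: 4.05, 5.77 and 5.02 CPM in shEGFR-WT and 0.977, 0.614 and 1.21 CPM in shEGFR-NLS, 5.30-fold lower (log2 fold change -2.41, standard error 0.22, edgeR adjusted p = 2.57e-07). The shEGFR-NLS value rests on 20 to 34 counts a library.

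F3 (ENSG00000117525; chr1:94529173-94541759, minus strand) encodes tissue factor. It was at 103, 97.9 and 108 CPM in EGF. The ERL libraries had 8.84, 12.1 and 9.47 CPM, and the cSNX libraries 161, 181 and 179 CPM. The 3 groups did not overlap. F3 fell 10.03-fold with erlotinib (log2 fold change -3.33, standard error 0.12, edgeR adjusted p = 1.21e-11), the largest change of any member in that comparison, and rose 1.70-fold with cSNX (log2 fold change 0.77, standard error 0.10, edgeR adjusted p = 0.000218). In shEGFR-WT it was at 127, 98.1 and 142 CPM, a range that overlapped that of EGF, and in shEGFR-NLS at 39.7, 42.6 and 42.5 CPM. The mutant line was 2.92-fold lower (log2 fold change -1.55, standard error 0.10, edgeR adjusted p = 1.38e-08).

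TFPI (ENSG00000003436; chr2:187464230-187565760, minus strand) encodes tissue factor pathway inhibitor, which blocks factor Xa and the complex of tissue factor with factor VIIa. It varied least. The drug groups all overlapped, with 40.5, 45.8 and 43.4 CPM in EGF, 49, 39.4 and 43.5 CPM in cSNX and 44.5, 58.9 and 46.1 CPM in ERL. Neither drug gave a call, with cSNX (log2 fold change 0.037, standard error 0.12, edgeR adjusted p = 0.904) or with erlotinib (log2 fold change 0.23, standard error 0.11, edgeR adjusted p = 0.119). The lines did differ: 65.3, 75.9 and 66.6 CPM in shEGFR-WT lay above every other library, and 34.6, 44.1 and 40.3 CPM in shEGFR-NLS overlapped the EGF range. TFPI was 1.74-fold lower in the mutant line (log2 fold change -0.80, standard error 0.093, edgeR adjusted p = 3.98e-06). CALCRL-AS1, on the opposite strand, shares 118 exon bases with TFPI, and with 55 to 166 counts a library it moved the other way in the lines (log2 fold change 0.98, standard error 0.17, edgeR adjusted p = 0.000270).

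TFPI2 (ENSG00000105825; chr7:93885396-93890753, minus strand) encodes a related Kunitz-type inhibitor that acts on plasmin and on the tissue factor complex. It was at 29, 39.8 and 30.9 CPM in EGF and 35.3, 29 and 23.3 CPM in cSNX, which overlapped (log2 fold change -0.17, standard error 0.14, edgeR adjusted p = 0.569). Erlotinib left 9.78, 9.42 and 7.97 CPM, below every other library, 3.6-fold under EGF (log2 fold change -1.85, standard error 0.15, edgeR adjusted p = 1.28e-07). The lines overlapped, with 51.6, 71 and 58.3 CPM in shEGFR-WT and 57.3, 52.2 and 61.1 CPM in shEGFR-NLS (log2 fold change -0.076, standard error 0.10, edgeR adjusted p = 0.577). TFPI and TFPI2 thus showed opposite patterns of calls: TFPI2 was called with erlotinib and not between the lines, TFPI between the lines and not with erlotinib. THBD (ENSG00000178726; chr20:23045633-23049672, minus strand) completes the set, at 0.

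**Figure D2:**
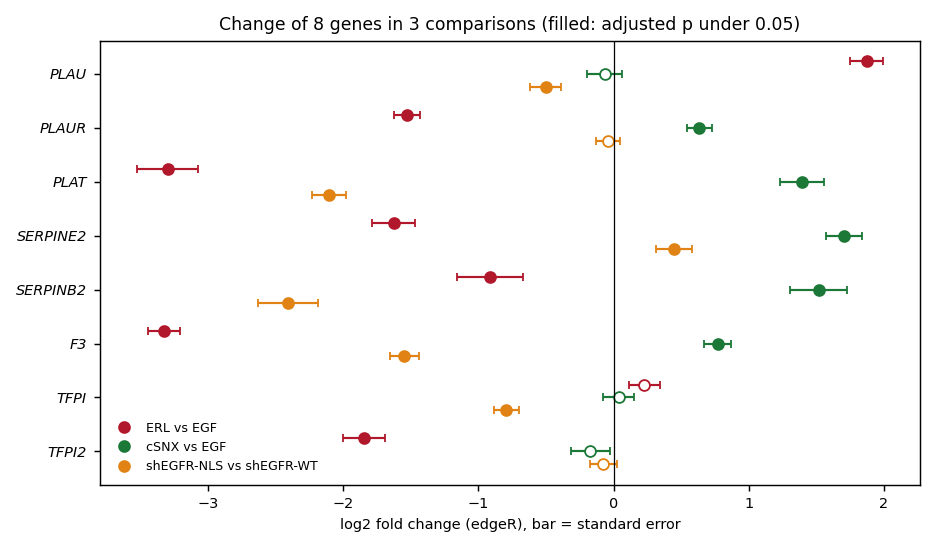
Fitted log2 fold changes of the 8 tested members in ERL vs. EGF, cSNX vs. EGF and shEGFR-NLS vs. shEGFR-WT, with bars of 1 standard error and filled points for an adjusted p under 0.05. Erlotinib values lie to the left of 0 for 6 members and to the right for PLAU and, not called, TFPI. The called cSNX values all lie to the right.

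Set directly against each other, at 10 µM and 15 µM, cSNX and ERL differed in 7 of 8 members, against 56.1% of all genes tested, a comparison that does not use the EGF libraries. PLAT was 25.8-fold, F3 17.1-fold and SERPINE2 10.1-fold higher in cSNX than in ERL (edgeR, adjusted p = 6.99e-11, 1.10e-12 and 6.28e-11). SERPINB2, PLAUR and TFPI2 were also higher, by 5.39-, 4.47- and 3.19-fold, and PLAU was 3.83-fold lower (edgeR, adjusted p = 2.43e-07, 6.12e-11, 1.82e-07 and 2.51e-09). TFPI did not pass the test (log2 fold change -0.19, standard error 0.11, adjusted p = 0.169).

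The study uses both cSNX and the NLS mutation against nuclear EGFR, and the difference between their effects was tested as an interaction over all 15 libraries. In it, 6 of 8 members were called, against 23.1% of all genes tested, and for all 6 the log2 fold change of the mutation lay below that of the peptide. PLAT, SERPINB2 and F3 rose with cSNX and fell with the mutation, and the 2 log2 fold changes differed by -3.50 for PLAT, -3.92 for SERPINB2 and -2.31 for F3 (edgeR, adjusted p = 7.00e-11, 1.73e-08 and 6.47e-10). SERPINE2 was called higher in both, but by less with the mutation (difference -1.25, adjusted p = 2.78e-05). PLAUR was called with cSNX and not with the mutation (difference -0.67, adjusted p = 0.000571) and TFPI with the mutation and not with cSNX (difference -0.83, adjusted p = 0.000539). For PLAU the difference was -0.43 with a standard error of 0.17 (adjusted p = 0.0778), and it was called with the replicate number as a block (-0.43, adjusted p = 0.0480) or without shEGFR-NLS replicate 2 (-0.54, adjusted p = 0.0361). For TFPI2 it was 0.10 with a standard error of 0.20 (adjusted p = 0.771). The paper calls it probable that the peptide affects further protein interactions, and says the lines may hold effects that do not depend on EGFR. It thus allows for effects of the peptide and the mutation that do not overlap. The part of either in these differences was not tested.

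The effect of the mutation differed from that of erlotinib in all 8 tested members, against 44.7% of all genes. The largest difference was for PLAU, at -2.36 on the log2 scale, since it rose with erlotinib and fell with the mutation (edgeR, adjusted p = 6.43e-10). PLAT and F3 fell in both comparisons, but further with erlotinib, by 1.2 and 1.79 (adjusted p = 0.00102 and 2.31e-08). SERPINB2 fell in both and further with the mutation (difference -1.48, adjusted p = 0.00232). SERPINE2, TFPI2 and PLAUR differed by 2.09, 1.78 and 1.5, and TFPI by -1.01 (adjusted p = 4.44e-08, 1.36e-06, 1.45e-08 and 2.73e-05).

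Levels were compared between genes only per kilobase of exon, here over all exons of a gene merged. PLAU stood at 0.301 ± 0.0352 (mean ± SD, n = 3, here and for the ratios that follow) of PLAUR in EGF and 0.184 ± 0.0195 in cSNX, but at 3.17 ± 0.344 times PLAUR in ERL. In the lines the ratio was 0.851 ± 0.0968 in shEGFR-WT and 0.628 ± 0.15 in shEGFR-NLS. Erlotinib was thus the group in which message for the ligand exceeded that for its receptor, in each of 3 libraries. F3 stood at 9.68 ± 0.868 times TFPI in EGF and 16.2 ± 2.65 times in cSNX, and at 0.825 ± 0.0148 of it in ERL. The lines gave 7.26 ± 1.78 and 4.28 ± 0.365 times. F3 exceeded TFPI in every group except ERL. Against TFPI2 the pattern differed: F3 stood at 2.68 ± 0.513, 5.21 ± 1.31 and 1.77 ± 0.521 times TFPI2 in EGF, cSNX and shEGFR-WT, at 0.622 ± 0.0596 of it in shEGFR-NLS and at 0.953 ± 0.167 in ERL, where single libraries lay on both sides of 1. With the length of the canonical transcript in place of merged exons, a choice made after the data were seen, the ratios in EGF and ERL were 0.116 and 1.23 for PLAU to PLAUR and 4.0 and 0.341 for F3 to TFPI, and both ratios stayed on the same side of 1 in all 5 groups, while the mean of F3 to TFPI2 in ERL moved to 1.08.

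**Figure D3:**
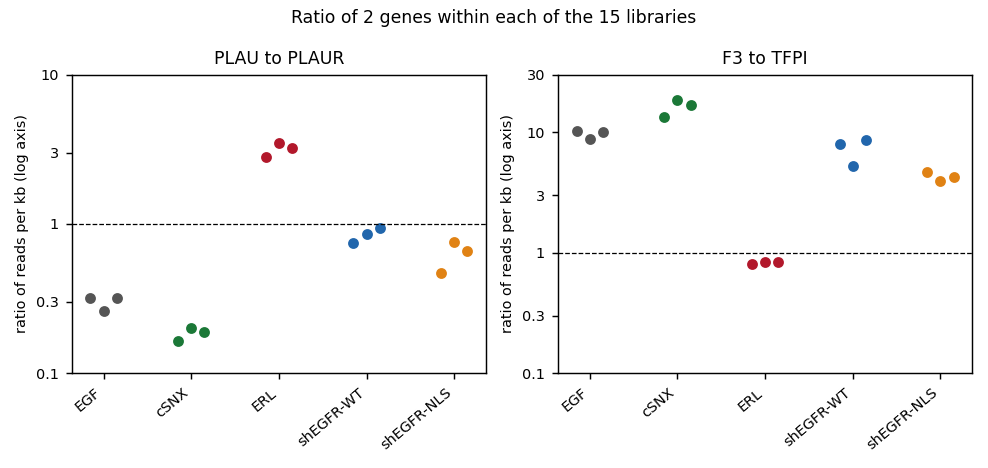
Ratios of PLAU to PLAUR and of F3 to TFPI in every library, from CPM per kilobase of merged exons on a log axis, by group. Points are libraries and the dashed line marks a ratio of 1. PLAU to PLAUR crosses above 1 and F3 to TFPI below 1 in ERL alone.

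Of the levels over 5 groups, the order was read by whether neighbouring groups overlapped in their library values. For SERPINE2 and SERPINB2 no neighbours overlapped: SERPINE2 rose from ERL through shEGFR-WT, shEGFR-NLS and EGF to cSNX, and SERPINB2 from shEGFR-NLS through ERL, EGF and shEGFR-WT to cSNX. F3 and PLAT shared 1 order, ERL, shEGFR-NLS, EGF, shEGFR-WT and cSNX, in which EGF and shEGFR-WT overlapped for F3, and shEGFR-WT and cSNX for PLAT. PLAUR ran from ERL through the overlapping lines to EGF and cSNX. PLAU alone had ERL at the top. TFPI had a single separate group, shEGFR-WT, with the other 4 overlapping their neighbours. For TFPI2, ERL was separate at the bottom, cSNX and EGF overlapped, and the overlapping lines lay above both. How many of all genes separate in the same way was not counted, so these orders only describe the members. Drug and line libraries come from separate experiments and were not tested against each other.

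Promoters of the 5 members with a window that fell with erlotinib, and that of PLAU, which rose, are shown. They were read for a loose form of the sequence that AP-1 recognises. AP-1 is the family of FOS and JUN factors that lies downstream of EGFR signalling. RefSeq windows (GRCh38.p14) from 250 bases before to 50 after an annotated start were found for 7 of the 9 members, in 9 windows, and not for PLAT or THBD. TGANTCA, which allows any base in the middle and reads the same on both strands, occurred in F3, PLAUR, SERPINB2 and TFPI2. It occurred in 7.71% of all 35116 windows of that length. It was not found in either window of SERPINE2, which also fell with erlotinib, in either window of PLAU, or in TFPI. PLAT, which fell too, had no window, and a part of AP-1 in these changes was not tested. The 4 windows with the motif, both SERPINE2 windows and the PLAU window at chr10:73910882-73911181 are given 5′ to 3′ on the gene's strand, with TGANTCA in capitals.
F3, chr1:94541710-94542009, minus strand: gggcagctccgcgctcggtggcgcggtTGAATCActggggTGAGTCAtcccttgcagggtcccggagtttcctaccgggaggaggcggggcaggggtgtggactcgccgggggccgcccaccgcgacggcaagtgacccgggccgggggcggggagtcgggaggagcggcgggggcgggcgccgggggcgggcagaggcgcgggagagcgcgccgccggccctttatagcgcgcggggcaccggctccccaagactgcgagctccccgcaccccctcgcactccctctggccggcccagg
PLAUR, chr19:43670120-43670419, minus strand: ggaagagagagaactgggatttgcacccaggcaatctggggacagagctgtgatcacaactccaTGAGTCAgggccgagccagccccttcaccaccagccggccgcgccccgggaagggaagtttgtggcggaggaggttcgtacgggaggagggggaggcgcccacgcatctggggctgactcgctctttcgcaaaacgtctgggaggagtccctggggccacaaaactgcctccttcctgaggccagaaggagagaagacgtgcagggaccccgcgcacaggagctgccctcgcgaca
SERPINB2, chr18:63887455-63887754, plus strand: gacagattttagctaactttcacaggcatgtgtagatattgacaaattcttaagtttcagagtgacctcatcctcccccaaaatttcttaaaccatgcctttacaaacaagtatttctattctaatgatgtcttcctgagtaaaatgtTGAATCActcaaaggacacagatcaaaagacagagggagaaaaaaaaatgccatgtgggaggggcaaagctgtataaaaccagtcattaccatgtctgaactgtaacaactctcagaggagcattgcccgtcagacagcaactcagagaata
TFPI2, chr7:93890704-93891003, minus strand: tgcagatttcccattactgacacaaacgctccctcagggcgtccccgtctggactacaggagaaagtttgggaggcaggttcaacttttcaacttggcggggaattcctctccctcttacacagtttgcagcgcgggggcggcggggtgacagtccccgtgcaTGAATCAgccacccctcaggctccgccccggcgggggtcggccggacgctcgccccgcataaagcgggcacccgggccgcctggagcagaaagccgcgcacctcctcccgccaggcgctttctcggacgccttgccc
SERPINE2, chr2:224031429-224031728, minus strand: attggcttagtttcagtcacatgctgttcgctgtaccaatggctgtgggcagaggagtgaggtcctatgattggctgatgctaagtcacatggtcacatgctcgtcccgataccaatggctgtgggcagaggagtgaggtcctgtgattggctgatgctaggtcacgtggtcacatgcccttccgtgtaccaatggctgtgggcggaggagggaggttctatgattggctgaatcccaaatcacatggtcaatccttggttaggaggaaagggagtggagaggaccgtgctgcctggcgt
SERPINE2, chr2:224038591-224038890, minus strand: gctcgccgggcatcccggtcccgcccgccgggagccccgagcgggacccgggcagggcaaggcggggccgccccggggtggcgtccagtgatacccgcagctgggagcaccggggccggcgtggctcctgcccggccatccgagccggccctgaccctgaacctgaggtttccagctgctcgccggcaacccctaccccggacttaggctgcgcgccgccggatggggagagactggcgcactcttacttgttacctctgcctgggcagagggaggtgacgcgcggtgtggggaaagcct
PLAU, chr10:73910882-73911181, plus strand: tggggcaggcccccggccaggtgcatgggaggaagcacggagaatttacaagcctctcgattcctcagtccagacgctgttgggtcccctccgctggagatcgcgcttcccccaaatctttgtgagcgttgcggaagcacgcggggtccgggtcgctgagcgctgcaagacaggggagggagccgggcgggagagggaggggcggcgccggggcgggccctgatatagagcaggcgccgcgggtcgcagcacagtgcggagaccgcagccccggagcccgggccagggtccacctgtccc
In F3 the matches began 223 and 210 bases before the start, in PLAUR 186, in SERPINB2 102 and in TFPI2 87. The matches read TGAATCA in SERPINB2, in TFPI2 and at 223 in F3, and TGAGTCA in PLAUR and at 210 in F3. TATAAA, the core of a TATA box, was found 30 bases before the start in SERPINB2 and, on the reverse strand, 28 before it in F3, and 11.5% of all windows held it on either strand. GGGCGG, the GC box, which 45.0% of all windows held on either strand, occurred 3 times in this PLAU window, 4 times in F3, 2 times in TFPI2 and 3 times over both SERPINE2 windows, and was not found in PLAUR, SERPINB2, TFPI or the other PLAU window. A match is a description of letters and not of binding, and no match says only that the letters are absent from that window.

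**Figure D4:**
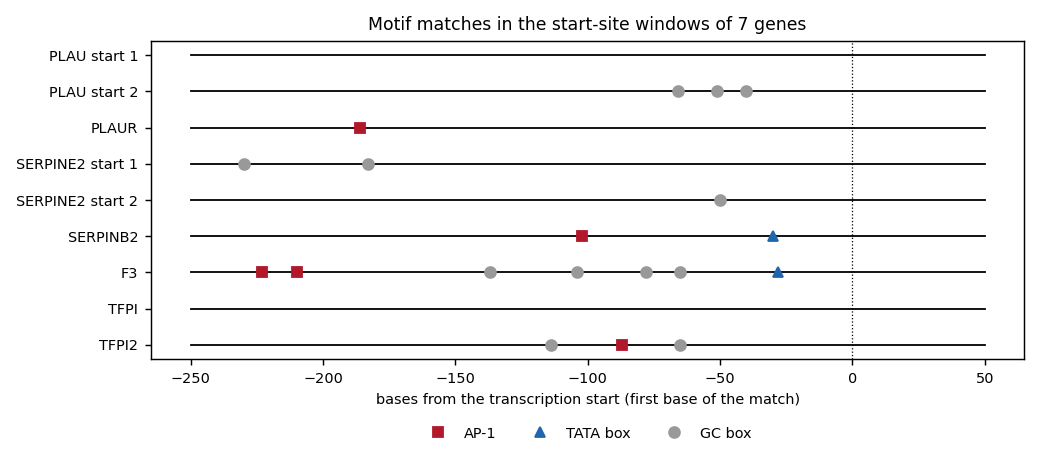
Positions of the AP-1, TATA box and GC box letters, as spelled out in the text, in the RefSeq promoter windows of the members, in bases from the annotated start. Each row is a window and each mark the first base of a match. The AP-1 letters appear in F3, PLAUR, SERPINB2 and TFPI2.

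The other genes of the system were followed in 5 lists written from general knowledge, with earlier results of these data known. Plasminogen itself, PLG, the substrate of both activators, had 0 counts in every library, and F7, the gene of the factor that tissue factor binds, had at most 3 counts. Among the 10 receptors and uptake genes, 9 were tested in the drug fit. With erlotinib 0 were higher and 4 lower (median log2 fold change -0.18), where 44.0% of all genes were called and 21.2% called lower. Among the 4 were S100A10, which with annexin A2 holds plasminogen at the surface (-1.13, edgeR, adjusted p = 1.17e-07), and MRC2, a collagen uptake receptor (-1.04, adjusted p = 0.000384). With cSNX S100A10 was the only one called of the 9, by 0.35 (adjusted p = 0.0285), where 6.07% of all genes were called. In the lines all 10 were tested, 3 being higher and 4 lower (median -0.13), where 41.4% of all genes were called: ANXA2, annexin A2 (-0.76), and LRPAP1 (-0.46) were lower, and MRC2 was higher by 0.43 and IGF2R by 0.27.

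Of the 10 serine proteases listed, 4 were tested, and 3, 1 and 3 were called in the 3 comparisons, where the shares of all genes called were 44.0%, 6.07% and 41.4%. With erlotinib TMPRSS2, a membrane protease, rose by 0.79 on the log2 scale, and TMPRSS4 and ST14, matriptase, were lower (-0.71 and -0.35). With cSNX TMPRSS2 was the 1 called, and it fell (-0.67). In the lines TMPRSS2 was again higher, by 0.66, and TMPRSS4 and PRSS8 lower (-1.19 and -0.23).

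The list of 28 other serpins and protease inhibitors held 19 that were tested. Of these, 4 were higher and 8 lower with erlotinib (median -0.51), 7 higher and 0 lower with cSNX (median 0.22), and 0 higher and 13 lower in the lines (median -0.57), beside medians over all genes of at most 0.0082 and shares of all genes called of 44.0%, 6.07% and 41.4%. SERPINB3 and SERPINB4, the squamous cell carcinoma antigens, fell by 3.14 and 2.80 with erlotinib (edgeR, adjusted p = 9.93e-08 and 5.60e-09) and rose by 2.28 and 2.23 with cSNX (adjusted p = 2.48e-06 and 1.55e-07). They are near-identical copies, so the split of reads between them is uncertain. SERPINB5, maspin, and SERPINB4 fell most in the lines, by 1.91 and 1.83 (adjusted p = 3.03e-10 and 7.31e-09). SERPING1, the C1 inhibitor, and A2M, alpha-2-macroglobulin, rose with erlotinib by 0.76 and 0.33 (adjusted p = 0.000781 and 0.00762).

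SERPINB2 lies among 10 serpin genes between 63476958 and 64019779 on chromosome 18, a grouping made after the values were seen. Of these, 6 were tested (SERPINB5, SERPINB4, SERPINB3, SERPINB7, SERPINB2 and SERPINB8) and 4 were not, with at most 12 counts in a library. All 6 were lower with erlotinib and all 6 lower in the mutant line, from -0.88 for SERPINB3 to -2.41 for SERPINB2. With cSNX 5 of the 6 were higher, and SERPINB8, at 0.46, did not pass the test (edgeR, adjusted p = 0.163). Over all genes 21.2% were called lower with erlotinib, 21.0% lower in the lines and 3.38% higher with cSNX. SERPINB7 fell by 2.32 with erlotinib and rose by 1.32 with cSNX. The pattern was not limited to this group. SERPINB1, outside it, was called in the same directions, at -0.53, 1.38 and -1.12 (edgeR, adjusted p = 0.00141, 2.86e-06 and 2.81e-09). SERPINB6, also outside it, was higher with cSNX and lower in the lines but not called with erlotinib, and SERPINB9 was called in none.

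Of 21 coagulation factors and cofactors, 10 were tested, of which 3 were higher and 4 lower with erlotinib, 2 higher with cSNX and 1 higher and 2 lower in the lines. These counts stand beside shares of all genes called of 44.0%, 6.07% and 41.4%. FGB, the beta chain, fell by 2.55 on the log2 scale with erlotinib, rose by 1.45 with cSNX and was lower in the mutant line (-3.96; edgeR, adjusted p = 9.88e-07, 0.000207 and 1.90e-12). FGG, the gamma chain, fell by 0.97 with erlotinib, rose by 0.87 with cSNX and was lower in the mutant line (-4.44; adjusted p = 0.00116, 0.00805 and 1.90e-12). FGB averaged 66.4 CPM in shEGFR-WT, 4.28 CPM in shEGFR-NLS and 3.82 CPM in EGF. FGG averaged 51.8, 2.37 and 2.92 CPM in the same groups. Both were thus highest in shEGFR-WT, but drug and line libraries were not tested against each other. FGA, the alpha chain, had at most 1 count in a library. F8, factor VIII, and PROS1, protein S, rose with erlotinib by 1.31 and 0.93, and F12, factor XII, fell by 1.0 with erlotinib and was higher by 0.43 in the mutant line. Of the 5 thrombin and protein C receptors, 3 were tested, of which 2, 1 and 1 were called, beside the same shares. F2R and F2RL1, the protease-activated receptors 1 and 2, rose with erlotinib by 0.61 and 0.43, F2R was higher by 0.52 in the mutant line, and PROCR, the endothelial protein C receptor, rose by 0.85 with cSNX.

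**Figure D5:**
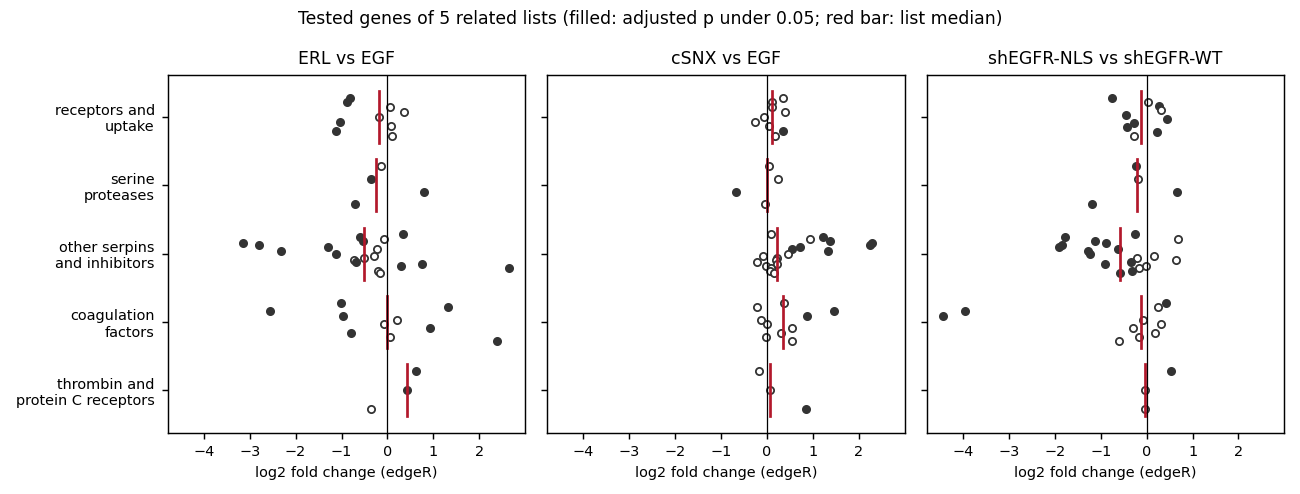
Log2 fold changes of the tested genes of the 5 lists in the 3 comparisons. Each point is a gene, filled where the adjusted p was under 0.05, and a bar marks the list's median. The other serpins and inhibitors lie mostly below 0 with erlotinib and in the lines.

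The genes whose pattern over the 5 group means was most like that of each member were picked by the root mean square difference of centred log2 CPM, among 12009 protein-coding genes that averaged 1 CPM or more. The closest to PLAUR were MAFF, a small MAF transcription factor, at 0.071, and TNFRSF10A, a death receptor for TRAIL, at 0.086, against a range of 2.18 for PLAUR itself. For F3 they were KRT6C, at 0.14, whose reads may be shared with its near-identical paralogs, and DUSP4, a MAP kinase phosphatase, at 0.32, against a range of 4.10. PLAT was nearest to SERPINB4 (0.28) and TGM2, a transglutaminase (0.32), and SERPINE2 to GPAT3 (0.19) and NOX5 (0.27). PLAU, with its rise in ERL, was nearest to SVOPL (0.14) and VIPR1, a receptor for vasoactive intestinal peptide (0.15). SERPINB2 had the least close neighbours, RHOF (0.37) and ANKRD29 (0.40), and TFPI, which varied least, the closest, ADAM10, a membrane sheddase (0.046), and CCDC50 (0.048). The gene named for TFPI2 was SHC3 (0.21). These are descriptions over 5 points that share their libraries.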

How the data were processed

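Polyadenylated RNA was sequenced in 15 libraries of the MDA-MB-468 line, 3 per group, and groups were taken from the sample labels. The authors trimmed reads, aligned them to GRCh38 with STAR and counted read pairs per gene with featureCounts without regard to strand. The deposited values are these raw counts for 61552 genes. The annotation release is not given in the sources used here. Names, coordinates and exon lengths came from GENCODE 44, which matched 61399 gene IDs and not 153.

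The counts were scaled by TMM, filtered with filterByExpr by group and fitted with edgeR 4.0.16 (R 4.3.3, robust quasi-likelihood, Benjamini-Hochberg adjustment over all genes tested, threshold 0.05). The 9 drug libraries gave ERL vs. EGF, cSNX vs. EGF and cSNX vs. ERL, the 6 line libraries gave shEGFR-NLS vs. shEGFR-WT, and all 15 gave the interactions. Standard errors are the size of the log2 fold change divided by the square root of F. The scripts were tested on simulated data. The alternatives were DESeq2 1.42.0, DESeq2's size factors within edgeR, no filter, at least 10 counts in every library, other sets of libraries in the fit, a stricter threshold of 0.01, a block for the replicate number, and fits without each library in turn. Replicates of a group differed by more than counting noise (chi-square per degree of freedom 2.60 to 22.3), but no source used here says that they were separate cultures, so p-values measure the spread between these samples, which may be technical.

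The members and lists were chosen with earlier results of these data known. Named are all members, EGFR, the markers, genes that overlap a member on the other strand, the 2 nearest genes in pattern to each member, and from each list the 2 largest called rises and falls per comparison among genes averaging 1 CPM or more. PLG, F7, FGA, the serpins around SERPINB2 and the SERPINB genes outside that group were added after their values were seen. Part of the genes so chosen is not reported here.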

Additional observations from a re-analysis of the deposited data

Results flagged for a closer look

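The effects of the NLS mutation and of cSNX differed by the interaction test in 6 members (edgeR, adjusted p under 0.05). The difference, shEGFR-NLS vs. shEGFR-WT minus cSNX vs. EGF on the log2 scale, was -3.92 for SERPINB2, -3.50 for PLAT and -2.31 for F3, each of which was called higher with the peptide and lower with the mutation. For SERPINE2, called higher in both, it was -1.25. For PLAUR, called with the peptide, it was -0.67, and for TFPI, called with the mutation, it was -0.83. The mutation and the derivation of the line cannot be told apart in these values. Groups of 3 libraries were too small to test for outlying samples.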

How the results depend on the processing

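Of 848 refits of the 48 member results, 838 kept their direction and their side of the threshold. In the 106 refits of member counts, 7 were always called in ERL vs. EGF and in cSNX vs. ERL, and 5 in cSNX vs. EGF. The interaction with ERL kept 8, the lines gave 5 or 6, and the interaction with cSNX gave 6 or 7. SERPINE2 in shEGFR-NLS vs. shEGFR-WT lost its call at an adjusted p under 0.01 (0.0128) and without shEGFR-NLS replicate 2 (log2 fold change 0.38, adjusted p = 0.0620). The difference for PLAU between the mutation and cSNX gained a call with the replicate block (-0.43, adjusted p = 0.0480) and without shEGFR-NLS replicate 2 (-0.54, adjusted p = 0.0361). Leaving out 1 library turned the sign of 4 results that were not called: TFPI in cSNX vs. EGF ranged from -0.052 to 0.11, PLAUR in the lines from -0.13 to 0.016, TFPI2 in the lines from -0.18 to 0.061 and the TFPI2 difference between the mutation and cSNX from -0.039 to 0.27. The cause was not tested.

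Over all genes, calls ranged from 4789 to 7718 in ERL vs. EGF, from 470 to 1444 in cSNX vs. EGF and from 4513 to 6578 in the lines. Replicate numbers are shared between groups, but same-numbered libraries did not deviate together in every pair (r from -0.41 to 0.44 over 9 drug pairs, 4 of them over 0.1, including all 3 pairs of replicate 3, at 0.44, 0.18 and 0.17, and from -0.17 to -0.0036 over 3 line pairs, 0 of them over 0.1). The numbers were therefore not taken to pair the libraries. With the replicate number as a block, 7, 5 and 6 members were called in ERL vs. EGF, cSNX vs. EGF and the lines, and 7, 7 and 8 in cSNX vs. ERL and the interactions with cSNX and ERL. PLAT in ERL, at 11 to 17 counts a library, and SERPINB2 in shEGFR-NLS, at 20 to 34, are where depth limits precision most.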
